A study of Homo sapiens with 8 samples.

Results

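The 10 genes described here are transcripts widely used to read out the activity of the co-activator YAP and the TEAD transcription factors, together with the gene for YAP itself. They are CCN1, CCN2, ANKRD1, AMOTL2, AJUBA, LATS2, AXL, F3, CRIM1 and YAP1. They were taken by symbol from a count table of 20294 genes, and all 10 were present and had enough counts to be tested among 13124 genes. RNA came from HSC-5, a human cutaneous squamous cell carcinoma line that stably expressed Cas9 after lentiviral transduction, was grown in DMEM with serum, and was selected with G418. The Control group (2 libraries) carried the empty vector, and the groups sgEZH2-1 and sgEZH2-2 (3 libraries each) carried 1 of 2 guide RNAs directed to EZH2, the catalytic subunit of the Polycomb repressive complex that methylates histone H3. The cells were a selected population of 1 line, the time between transduction and harvest is not given in the sources used here, and per the series' design text the authors left out 1 further control because it did not group with the others. The series compared guide-carrying cells with empty-vector cells.

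YAP and its relative TAZ (gene WWTR1) are held in the cytoplasm when LATS1/2, Hippo kinases that act downstream of MST1/2, phosphorylate them. When that restraint is released they enter the nucleus, bind TEAD factors at the motif GGAATG, often beside AP-1 sites, and raise transcription of genes for matrix proteins, surface receptors and some of the pathway's own inhibitors. In epidermis and in squamous carcinoma YAP is known for promoting basal cell proliferation and for responding to cell density, stretch and serum.

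EZH2 was at 82.7 and 84.1 CPM in the controls, at 56.4, 56.3 and 48.0 CPM with sgEZH2-1 and at 73.9, 67.6 and 65.1 CPM with sgEZH2-2. CPM is the count relative to the library total, after scaling between libraries. All 6 guide libraries were below both controls. EZH2 fell with sgEZH2-1 by 0.64 on the log2 scale (adjusted p = 0.000529 in edgeR's quasi-likelihood test). Its change of -0.28 with sgEZH2-2 did not pass (adjusted p = 0.0699). Among the recomputed settings that change passed only without the third sgEZH2-1 library (adjusted p = 0.0473). With both guides pooled against the controls EZH2 was at -0.45 and did not pass (adjusted p = 0.113). By the mean of both guides in the fit of 3 groups it passed (-0.46, adjusted p = 0.00253). Small insertions and deletions leave a transcript countable, so these values do not measure the protein. Library totals were 12.6 to 15.5 M counts, and mitochondrial genes took 1.12% to 1.71% of them. Of 13 keratinocyte markers, KRT5 was at 2030 ± 109 CPM (SD, n = 2) and TP63 at 220 ± 17.1 CPM in the controls, while KRT14, a defining basal keratin, was at 0.474 ± 0.0676 CPM. The labels name no separate cultures, so the p-values measure only how far these libraries spread, which may be technical. Libraries are named by their order within a group.

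Sequence upstream of CCN2, ANKRD1 and F3 is shown first, because these members stood out by their response and differ in the motifs they carry. The stretches are from RefSeq on GRCh38, 5′ to 3′ on the gene's own (minus) strand, and lie within the 250 bases before the RefSeq start. They stop at the outermost start of GENCODE 29 (for ANKRD1 1 base inside it, to keep a motif whole), and the ANKRD1 stretch of 30 bases around its other GGAATG lies inside the GENCODE transcript. Capitals mark GGAATG, searched on both strands, and TGANTCA, the AP-1 motif, which reads the same on both strands. The motifs do not overlap.
CCN2, chr6:131951374-131951622: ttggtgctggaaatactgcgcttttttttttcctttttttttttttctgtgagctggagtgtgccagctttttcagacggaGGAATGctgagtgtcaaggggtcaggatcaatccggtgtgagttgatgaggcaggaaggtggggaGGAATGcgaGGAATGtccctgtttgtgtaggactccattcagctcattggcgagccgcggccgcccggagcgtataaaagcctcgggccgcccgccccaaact
ANKRD1, chr10:90921276-90921337: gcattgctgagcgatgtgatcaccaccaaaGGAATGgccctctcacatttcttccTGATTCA
ANKRD1, chr10:90921198-90921227: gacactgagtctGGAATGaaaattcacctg
F3, chr1:94541801-94542009: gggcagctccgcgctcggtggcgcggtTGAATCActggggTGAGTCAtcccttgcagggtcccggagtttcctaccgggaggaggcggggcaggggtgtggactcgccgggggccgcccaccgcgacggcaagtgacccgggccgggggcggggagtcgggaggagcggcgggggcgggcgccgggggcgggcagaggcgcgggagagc

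The CCN2 window held GGAATG 3 times, with first bases 169, 104 and 95 bases before the RefSeq start, and no TGANTCA. ANKRD1 held GGAATG at 220 and 128 and TGANTCA at 195 bases before its start. F3 held no GGAATG and TGANTCA at 223 and 210 bases before its start. Among 35116 promoter windows of the same length, 11.9% held GGAATG at least once, 0.94% at least 2 times and 0.0826% at least 3 times, and 6.57% held TGANTCA. Among the 15172 windows of tested genes these shares were 10.1%, 0.692%, 0.0527% and 4.7%. The table matched 8 of the 10 members in 11 entries. CCN1 and CRIM1 were not matched. YAP1 held 1 GGAATG, as did 1 of the entries each for AMOTL2, AJUBA and AXL, while LATS2 held neither motif. For AMOTL2, AJUBA and AXL the window with the motif lies inside the GENCODE gene. Their other entry, at the outer start of the gene, held neither motif. A match is a description of letters in this window and does not show that a factor binds there.

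With sgEZH2-1, 4 of the 10 genes were higher than in the controls and 0 were lower, against 11.3% higher and 9.51% lower among all genes tested (20.8% in either direction). ANKRD1 rose 2.40-fold, AXL 2.36-fold, F3 2.30-fold and CRIM1 1.22-fold. With sgEZH2-2, 1 gene was higher and 2 were lower, against 6.18% and 2.50% of all genes (8.68% in either direction). CCN2 rose 1.60-fold, AJUBA fell to 0.722 of the control level and F3 fell to 0.764. No member passed in the same direction with both guides. Among the genes tested 578 (4.4%) rose with both and 132 (1.01%) fell with both. Beside such small shares, 0 of 10 does not set the members apart. CCN1, AMOTL2, LATS2 and YAP1 passed with neither guide. The median log2 fold change of the 10 was 0.19 with sgEZH2-1 and -0.11 with sgEZH2-2, beside -0.00939 and 0.000913 over all genes. Both comparisons use the same 2 controls. By libraries alone, 6 members with sgEZH2-1 lay above both controls and 0 below (23.7% and 24.2% of all genes, 48.0% together). With sgEZH2-2, 1 lay above and 4 below (19.3% and 20.5%, 39.7% together). Calls are at an adjusted p of at most 0.05 in edgeR's quasi-likelihood test, adjusted over all 13124 genes. In a bulk library, a change in the share of cells that make a transcript and a change in RNA per cell cannot be told apart.

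**Figure D1:**
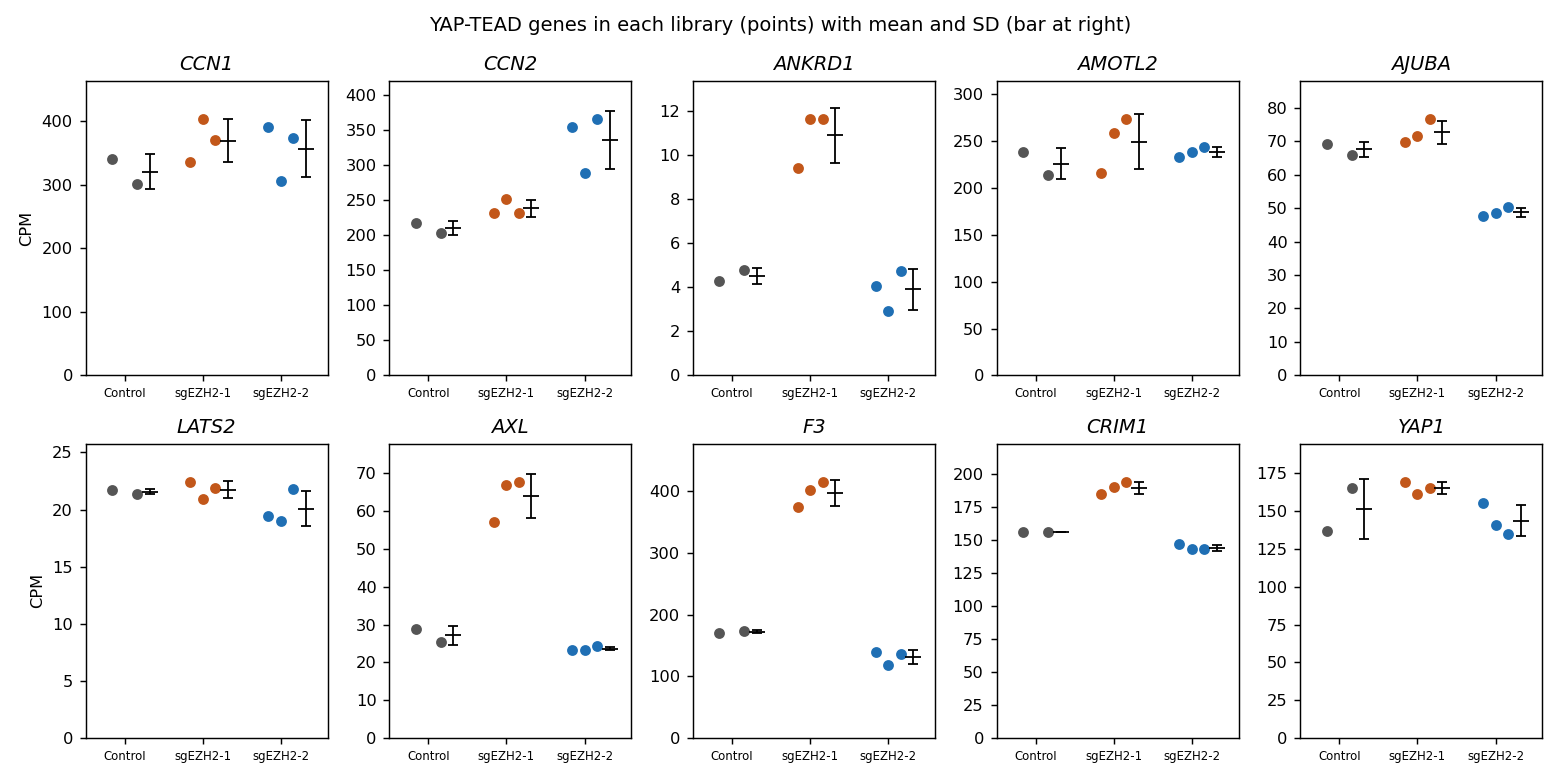
Level of each of the 10 genes in CPM (linear axis, 1 panel per gene) in the 2 Control, 3 sgEZH2-1 and 3 sgEZH2-2 libraries; points are libraries, and the mark to the right of each group is its mean ± SD. ANKRD1, AXL and F3 are high in the 3 sgEZH2-1 libraries alone, CCN2 is highest in the 3 sgEZH2-2 libraries and AJUBA is lowest in them.

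CCN1 (formerly CYR61) and CCN2 (formerly CTGF) encode secreted matricellular proteins that bind integrins and are the most commonly used YAP target readouts. CCN1 (chromosome 1, 85580761 to 85583962, plus strand, GRCh38) was at 340 and 302 CPM in the controls, at 336, 403 and 370 with sgEZH2-1 and at 391, 306 and 374 with sgEZH2-2. The groups overlapped throughout. Its log2 fold change was 0.20 ± 0.11 (SE) with sgEZH2-1 (adjusted p = 0.207) and 0.15 ± 0.11 with sgEZH2-2 (adjusted p = 0.444), and the 95% interval for sgEZH2-1, -0.0328 to 0.44, leaves room for a rise of up to 1.36-fold.

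CCN2 (chromosome 6, 131948176 to 131951373, minus strand) was at 217 and 203 CPM in the controls, at 231, 252 and 232 with sgEZH2-1 and at 354, 288 and 365 with sgEZH2-2. All 3 sgEZH2-2 libraries stood above every other library, and the sgEZH2-1 libraries lay just above the controls. CCN2 rose with sgEZH2-2 by a log2 fold change of 0.68 ± 0.0946 (SE; adjusted p = 0.00154). With sgEZH2-1 the value was 0.18 ± 0.0937 and did not pass (adjusted p = 0.196). The difference between the guides, 0.49 (95% interval 0.31 to 0.68), passed its own test (adjusted p = 0.00268). An antisense gene shares 195 bases, 8.34%, of the CCN2 exons, and whether counting used strand is not given in the sources used here. CCN3 (formerly NOV), a relative with few counts, went from a control level of 0.444 ± 0.0749 CPM to 3.04 ± 0.452 in sgEZH2-1 libraries and 1.25 ± 0.230 in sgEZH2-2 libraries, and rose with both guides (log2 fold change 2.75, adjusted p = 0.000257, and 1.49, adjusted p = 0.0288). The CCN3 rise with sgEZH2-2 did not pass with DESeq2 (adjusted p = 0.0836), without either control (up to 0.155) or without any 1 of the sgEZH2-2 libraries (up to 0.085).

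ANKRD1 encodes an ankyrin repeat protein of muscle and nucleus whose gene is among the steepest YAP responders in many cell lines. It lies on chromosome 10, 90912096 to 90921276, minus strand. It was at 4.26 and 4.76 CPM in the controls, at 9.42, 11.6 and 11.6 with sgEZH2-1 and at 4.07, 2.91 and 4.73 with sgEZH2-2. The sgEZH2-1 libraries stood apart from the other 5, which overlapped. These levels rest on 37 to 169 counts per library, fewer than for any other member. The log2 fold change was 1.26 ± 0.19 (SE) with sgEZH2-1 (adjusted p = 0.0012) and -0.21 ± 0.21 with sgEZH2-2 (adjusted p = 0.623). The interval for sgEZH2-2, -0.67 to 0.26, does not reach the sgEZH2-1 value, and the guides differed by -1.47 (adjusted p = 0.00035).

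AXL, F3 and CRIM1 encode proteins of the cell surface. AXL (chromosome 19, 41219203 to 41261766, plus strand) is a receptor tyrosine kinase of the TAM family that is activated by GAS6 and is associated with invasion and drug tolerance in carcinomas. It was at 28.8 and 25.4 CPM in the controls, at 57.2, 66.8 and 67.6 with sgEZH2-1 and at 23.3, 23.4 and 24.2 with sgEZH2-2. The sgEZH2-1 libraries were all about 2-fold or more above the rest, and the sgEZH2-2 libraries lay just under the controls. The AXL exons share 67 bases, 1.3%, with an antisense gene. The log2 fold change was 1.24 ± 0.0937 (SE) with sgEZH2-1 (adjusted p = 1.61e-05) and -0.19 ± 0.0967 with sgEZH2-2 (adjusted p = 0.272), and the guides differed by -1.43 (adjusted p = 5.8e-06).

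F3 encodes tissue factor, the membrane receptor for coagulation factor VII that starts the clotting cascade, and lies on chromosome 1, 94529225 to 94541800, minus strand. It was at 171 and 174 CPM in the controls, at 374, 403 and 415 with sgEZH2-1 and at 140, 118 and 137 with sgEZH2-2. The 3 groups did not overlap, with sgEZH2-1 above and sgEZH2-2 below the controls. The log2 fold change was 1.20 ± 0.0787 (SE) with sgEZH2-1 (adjusted p = 6.42e-06) and -0.39 ± 0.0771 with sgEZH2-2 (adjusted p = 0.0116). F3 was one of 25 genes, 0.19% of those tested, that rose with sgEZH2-1 and fell with sgEZH2-2. The guides differed by -1.59 (adjusted p = 2.78e-06), the widest gap among the 10 genes. The fall with sgEZH2-2 rests on both controls: without the first it was -0.39 with an adjusted p of 0.0643, and without the second -0.38 with 0.0726.

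CRIM1, a transmembrane protein that binds bone morphogenetic proteins (chromosome 2, 36355926 to 36551135, plus strand), was at 156 CPM in each of the controls. It was at 185, 190 and 194 CPM with sgEZH2-1 and at 147, 143 and 143 with sgEZH2-2, so the 3 groups did not overlap. The rise with sgEZH2-1 was small but larger than the spread, at 0.28 ± 0.048 (SE; adjusted p = 0.00235). The value with sgEZH2-2, -0.11 ± 0.0479, did not pass (adjusted p = 0.203), and the guides differed by -0.39 (adjusted p = 0.00022). Of the CRIM1 exons, 177 bases, 2.49%, are shared with an antisense gene.

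Of 11 ligands, partners and inhibitors of these 3 surface proteins, 8 had enough counts to be tested. With sgEZH2-1, 2 were higher and 3 lower (11.3% and 9.51% of all genes). With sgEZH2-2, 0 passed edgeR's test in either direction (8.68% of all genes), and PROS1, TFPI and BMP2 had an unadjusted p under 0.05. GAS6, the AXL ligand, fell from 58.2 ± 5.29 to 45.6 ± 4.15 CPM with sgEZH2-1 (log2 fold change -0.35, adjusted p = 0.0268). The GAS6 call was not recomputed in other settings. TFPI, the inhibitor of tissue factor, fell from 99.6 ± 11.0 to 78.7 ± 1.91 CPM (-0.34, adjusted p = 0.00743). Of the ligands CRIM1 can bind, BMP4 rose from 24.0 ± 2.07 to 34.0 ± 0.766 CPM (0.50, adjusted p = 0.00509), BMP2 rose from 1.36 ± 0.0141 to 2.95 ± 0.227 CPM (1.12, adjusted p = 0.00881), and BMP7 fell from 112 ± 11.9 to 90.1 ± 7.10 CPM (-0.31, adjusted p = 0.0218). Without the first control BMP2 (adjusted p = 0.0585) and BMP7 (0.2) did not pass, nor did TFPI without the second (0.0528), and BMP7 was also lost without the second sgEZH2-1 library (0.0507) and with only the 2 groups in the fit (0.0586). Factor VII (F7) and TFPI2 had 0 counts in every library. MERTK, a relative of AXL, rose with sgEZH2-1 from 1.02 ± 0.158 to 2.09 ± 0.207 CPM (1.02, adjusted p = 0.0221). That call did not hold with DESeq2 (0.105), without either control (0.0722 and 0.118) or without the first sgEZH2-1 library (0.0537). TYRO3, the other TAM receptor, was at 51.8 ± 3.56, 55.2 ± 3.44 and 50.4 ± 2.28 CPM and did not pass. Among all 14 closest relatives of the members 11 were tested. With sgEZH2-1, 2 rose, CCN3 and MERTK (11.3% of all genes), and with sgEZH2-2, 1 rose, CCN3 (6.18% of all genes).

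AMOTL2, AJUBA and LATS2 act on YAP as well as answering to it, and YAP1 encodes YAP. AMOTL2, an angiomotin family protein that retains YAP at junctions (chromosome 3, 134355874 to 134375479, minus strand), was at 238 and 214 CPM in the controls, at 216, 259 and 273 with sgEZH2-1 and at 233, 238 and 244 with sgEZH2-2. The groups overlapped and neither guide passed (log2 fold change 0.14 and 0.0775). Without the first sgEZH2-1 library, which was the lowest of its group, AMOTL2 passed with sgEZH2-1 at 0.24 (adjusted p = 0.0255). A pseudogene on the same strand, absent from the count table, shares 187 exonic bases, 3.12%, with AMOTL2.

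AJUBA, a LIM protein that binds and inhibits LATS kinases (chromosome 14, 22971174 to 22982642, minus strand), was at 69.1 and 66.0 CPM in the controls, at 69.9, 71.4 and 76.5 with sgEZH2-1 and at 47.6, 48.5 and 50.2 with sgEZH2-2. The 3 sgEZH2-2 libraries stood below all others within a narrow range. AJUBA fell with sgEZH2-2 by 0.47 on the log2 scale (SE 0.0652, adjusted p = 0.00152) and was at 0.10 with sgEZH2-1 (adjusted p = 0.288). The guides differed by -0.57 (adjusted p = 0.000166). A second gene on the same strand in the table shares 50 exonic bases, 0.836%, with AJUBA. The relatives LIMD1 and WTIP passed with neither guide.

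LATS2, the kinase that phosphorylates YAP and is itself a YAP target (chromosome 13, 20973032 to 21061547, minus strand), was at 21.7 and 21.4 CPM in the controls, at 22.4, 20.9 and 21.9 with sgEZH2-1 and at 19.4, 19.0 and 21.8 with sgEZH2-2. The groups overlapped, and the intervals of the log2 fold change, -0.18 to 0.20 and -0.30 to 0.0909, exclude a change of the size seen for F3 with sgEZH2-1. YAP1 (chromosome 11, 102110461 to 102233423, plus strand) was at 137 and 165 CPM in the controls, at 169, 161 and 165 with sgEZH2-1 and at 155, 141 and 135 with sgEZH2-2. It passed with neither guide (0.13, adjusted p = 0.299, and -0.0695, adjusted p = 0.678). The controls themselves spanned most of the range of all 8 libraries. An antisense gene shares 628 exonic bases, 9.97%, with YAP1. YAP1 was lower in all 3 sgEZH2-2 than in all 3 sgEZH2-1 libraries, by -0.20, and this difference did not pass (adjusted p = 0.0785). With only the 2 groups in the fit, the difference passed (adjusted p = 0.0352). It passed without either control (adjusted p = 0.0402 without the first and 0.0376 without the second) and without the first sgEZH2-2 library (-0.25, adjusted p = 0.0495).

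**Figure D2:**
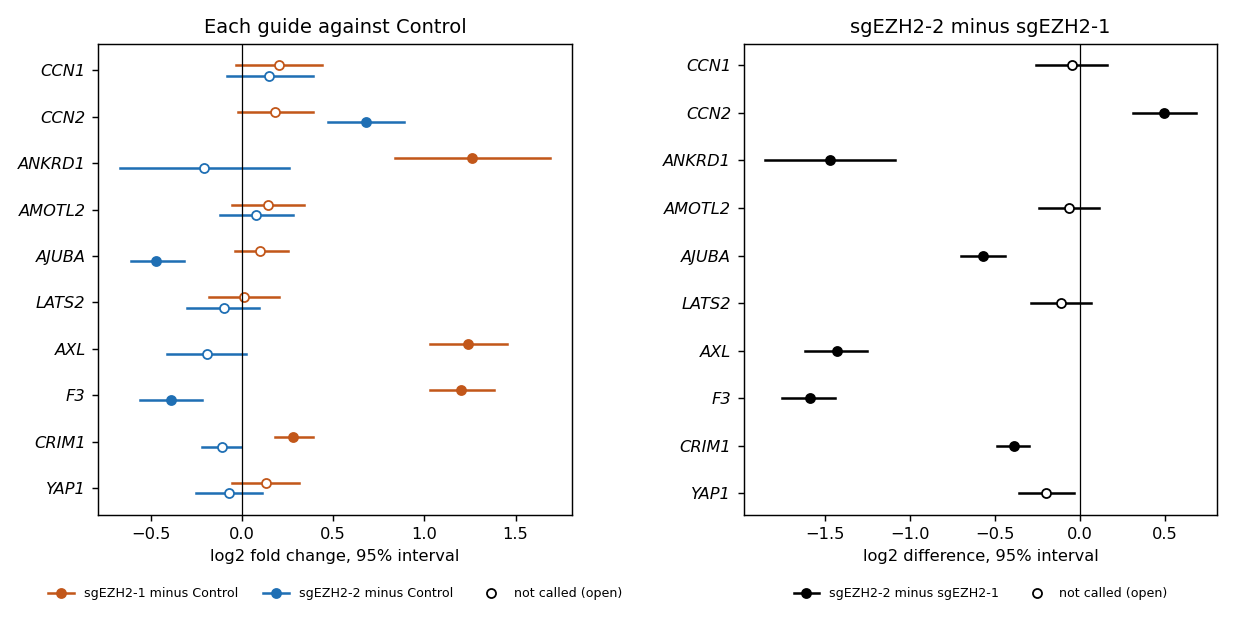
Log2 fold change of the 10 genes for each guide against Control (left) and the difference sgEZH2-2 minus sgEZH2-1 (right), with 95% intervals; filled points passed an adjusted p of 0.05 and open points did not. ANKRD1, AXL and F3 lie at 1.20 to 1.26 with sgEZH2-1, and no gene has both of its points filled on the same side of 0.

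Compared directly, 6 of the 10 genes differed between the guides, CCN2 being higher with sgEZH2-2 and ANKRD1, AJUBA, AXL, F3 and CRIM1 lower. Among all genes tested 21.9% differed, 11.5% higher and 10.4% lower with sgEZH2-2. The libraries of the guides did not overlap for 7 members, 1 higher and 6 lower with sgEZH2-2, against 42.2% of all genes (21.2% higher and 21.0% lower). The test of guide difference did not pass for CCN1, AMOTL2, LATS2 and YAP1. With both guides pooled against the controls, 0 of the 10 genes passed edgeR's quasi-likelihood test, and 0 with DESeq2 or limma's voom, against 4.36% of all genes (3.76% higher and 0.594% lower), and in that fit the difference between the guides adds to the spread. CCN2 alone had an unadjusted p under 0.05 there (0.034, adjusted p = 0.26), with all 6 guide libraries above both controls, as for 10.2% of all genes (9.77% lay below both, 19.9% in either direction). By the mean of both guides in the fit of 3 groups, 3 members were higher: CCN2 at 0.43, AXL at 0.52 and F3 at 0.41. Among the 13124 genes tested, 1010 were higher and 602 lower by that mean, more than in the pooled fit. For AXL and F3 that mean joins values of opposite sign.

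Per length, the order of the members was led by the CCN genes. In RPKM, which divides CPM by the exon length in kilobases, the mean control levels were 131 for CCN1, 89.7 for CCN2, 60.1 for F3, 37.7 for AMOTL2, 24.0 for YAP1, 21.9 for CRIM1, 11.3 for AJUBA, 5.25 for AXL, 3.87 for LATS2 and 2.28 for ANKRD1. Among neighbours in this order only YAP1 and CRIM1 overlapped between libraries. With sgEZH2-1, F3 moved to the second place at 138 ± 7.38 RPKM and overlapped CCN1 at 151 ± 13.7 RPKM. There AXL, at 12.4 ± 1.12 RPKM, overlapped AJUBA at 12.1 ± 0.577, CRIM1 overlapped YAP1, and ANKRD1 at 5.48 ± 0.623 RPKM stood above LATS2 at 3.90 ± 0.141. With sgEZH2-2, CCN2 at 143 ± 17.9 RPKM overlapped CCN1 at 145 ± 18.2, and the remaining order was that of the controls.

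**Figure D3:**
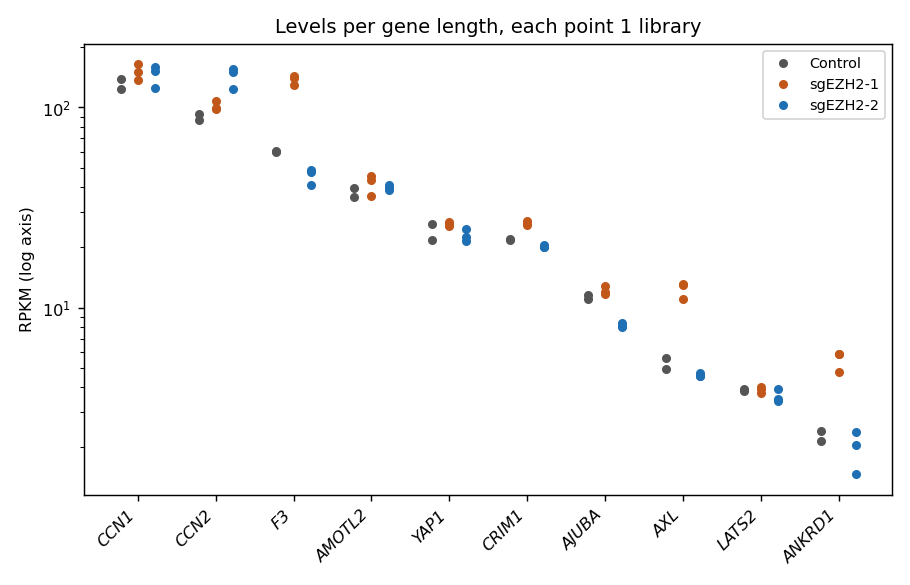
Level of the 10 genes per exon length, in RPKM on a log axis; each point is 1 library, coloured by group, with genes in the order of the control means. CCN1 leads in each group with means of 131 to 151 RPKM, and the mean of F3 lies between 45.8 RPKM with sgEZH2-2 and 138 RPKM with sgEZH2-1.

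The genes whose levels ran most like each member were taken as those with the highest Pearson r of log2 CPM over the 8 libraries. As the libraries fall into 3 groups, r reflects those groups to a large extent and is a description only. For AXL this gene was ALPP (r = 0.997), for F3 ANXA3 (0.996), for CRIM1 IL1RN (0.994) and for ANKRD1 CPPED1 (0.992). ANXA3 shared the opposite calls of F3, with log2 fold changes of 1.61 with sgEZH2-1 and -0.51 with sgEZH2-2 (adjusted p = 1.93e-05 and 0.0423). IL1RN, the interleukin 1 receptor antagonist, was likewise at 0.75 and -0.40 (adjusted p = 8.55e-05 and 0.00906). For AJUBA it was TRIM16 (0.991), for YAP1 CDC73 (0.987), for AMOTL2 EPHA2 (0.984), for LATS2 MED23 (0.966) and for CCN1 BORCS8 (0.936). For CCN2 it was EGR2 (0.96), an early growth response factor that rose with sgEZH2-2 by 1.85.

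The 14 further genes of a published YAP/TAZ signature were all tested. With sgEZH2-1, 4 of the 14 rose and 1 fell (11.3% and 9.51% of all genes), with a median log2 fold change of 0.11. With sgEZH2-2, 1 rose and 2 fell (6.18% and 2.50% of all genes), with a median of -0.0909. IGFBP3, a binding protein for insulin-like growth factors, rose from 48.9 ± 3.64 to 119 ± 5.59 CPM with sgEZH2-1 (1.28, adjusted p = 2.98e-06) and was at 55.6 ± 1.78 CPM with sgEZH2-2 (0.18, adjusted p = 0.159). NT5E, the surface enzyme CD73, rose with both guides, by 0.66 and 0.27 (adjusted p = 5.16e-05 and 0.0208). CCDC80, a secreted matrix protein, fell with both, by 0.35 and 0.47 on the log2 scale (adjusted p = 0.0032 and 0.00111). TGFB2, a growth factor, rose with sgEZH2-1 (0.50, adjusted p = 0.00741) and did not pass with sgEZH2-2 (-0.28, adjusted p = 0.138). MYOF, a membrane repair protein, rose with sgEZH2-1 by 0.18 (adjusted p = 0.0218) and fell with sgEZH2-2 by 0.20 (adjusted p = 0.023). Between the guides 5 of the 14 were lower with sgEZH2-2 and 0 were higher (10.4% and 11.5% of all genes). The MYOF rise was lost without either control, without the second sgEZH2-1 library and with only the 2 groups in the fit (adjusted p up to 0.0918), and its fall without either control, the second sgEZH2-1 library or any 1 sgEZH2-2 library (up to 0.158). TGFB2 was lost without the first control (0.0706), where 2 of the 14 rose with sgEZH2-1. NT5E with sgEZH2-2 was lost without either control or the second or the third sgEZH2-2 library (up to 0.0966), so that 0 of the 14 rose, and the number that fell with sgEZH2-2 was 1 wherever MYOF was lost.

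TEAD factors and their co-factors were tested for 8 of 9 genes, of which 3 rose and 0 fell with sgEZH2-1 (11.3% and 9.51% of all genes) and 1 rose and 1 fell with sgEZH2-2 (6.18% and 2.50%). VGLL3, a co-factor that binds TEAD in place of YAP, rose with both guides, from 1.66 ± 0.0438 CPM to 7.20 ± 0.434 with sgEZH2-1 and to 4.89 ± 0.456 with sgEZH2-2 (log2 fold change 2.11, adjusted p = 2.99e-05, and 1.55, adjusted p = 0.000591). VGLL1 rose with sgEZH2-1 (0.46, adjusted p = 0.00473) and fell with sgEZH2-2 (-0.40, adjusted p = 0.0234). The VGLL1 fall was lost with DESeq2 (0.0686), with only the 2 groups in the fit (0.0561), and without either control, the second sgEZH2-1 library or any 1 sgEZH2-2 library (0.0521 to 0.141). TEAD1 rose with sgEZH2-1 by 0.32 (adjusted p = 0.0132; 0.114 without the first control) and did not pass with sgEZH2-2. WWTR1, TEAD2, TEAD3, TEAD4 and VGLL4 passed with neither guide in the fit of 3 groups. In other settings VGLL4 fell with sgEZH2-1, by limma's voom (-0.21, adjusted p = 0.0483) and without the first sgEZH2-1 library (-0.25, adjusted p = 0.0265). WWTR1 fell with sgEZH2-1 without the third sgEZH2-1 library (-0.21, adjusted p = 0.0412). VGLL2 had at most 5 counts in a library.

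**Figure D4:**
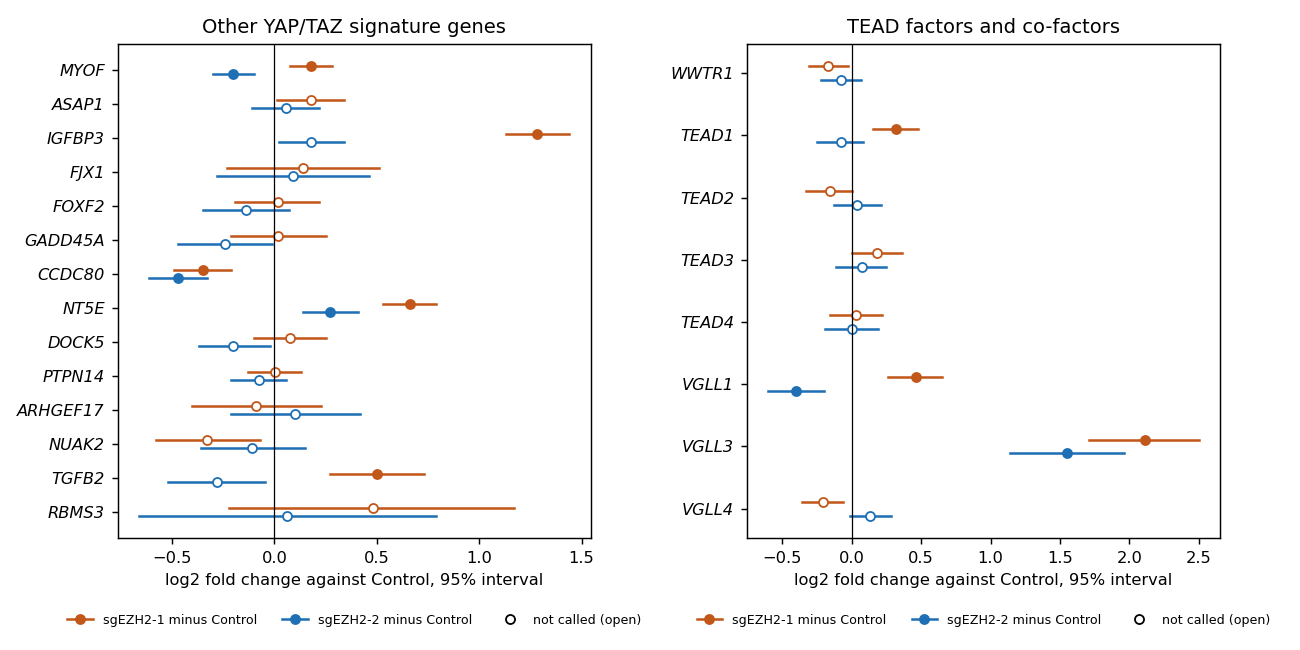
Log2 fold change against Control with 95% intervals for 14 other YAP/TAZ signature genes (left) and 8 TEAD factors and co-factors (right), for sgEZH2-1 and sgEZH2-2; filled points passed an adjusted p of 0.05. VGLL3 is at 2.11 and 1.55, and IGFBP3 is at 1.28 with sgEZH2-1 alone.

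Of 25 Hippo kinases and upstream regulators 23 were tested, and few passed. With sgEZH2-1, WWC1 (KIBRA, a scaffold that activates LATS) rose from 65.1 ± 7.25 to 106 ± 7.04 CPM (0.71, adjusted p = 0.000248) and the kinase MAP4K4 rose by 0.25 (adjusted p = 0.00492), and 0 fell (11.3% of all genes rose and 9.51% fell). Without the second control the number that rose was 7. With sgEZH2-2 the atypical cadherin FAT4 fell from 14.7 ± 1.56 to 8.91 ± 1.11 CPM (-0.73, adjusted p = 0.0153; 0.115 without the second control and 0.0581 without the third sgEZH2-2 library) and 0 rose (2.50% of all genes fell and 6.18% rose). The median log2 fold changes were 0.13 and 0.00937. Between the guides 7 of the 23 were lower with sgEZH2-2 and 0 were higher (10.4% and 11.5% of all genes), and the number lower was 4 without the second or the third sgEZH2-2 library.

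AP-1 factors, which often share enhancers with TEAD, were tested for 8 of 9 subunits, of which 1 rose and 2 fell with sgEZH2-1 (11.3% and 9.51% of all genes) and 3 rose and 0 fell with sgEZH2-2 (6.18% and 2.50%). FOSL1 rose with sgEZH2-1 from 23.1 ± 0.0476 to 42.8 ± 5.50 CPM (0.89, adjusted p = 0.000389), while FOSB and FOS fell (-0.47, adjusted p = 0.000804, and -0.19, adjusted p = 0.0491). With sgEZH2-2, JUN rose from 93.6 ± 4.59 to 141 ± 9.60 CPM (0.59, adjusted p = 0.00357), JUNB rose by 0.88 (adjusted p = 0.0476; 0.0674 with DESeq2 and 0.0562 with limma's voom) and FOS rose by 0.23 (adjusted p = 0.0449). The FOS fall with sgEZH2-1 lay close to the threshold: it was lost with RLE scaling (0.0548), a mean count of at least 10 (0.051), only the 2 groups in the fit (0.0939), and without any 1 library other than the third of sgEZH2-1 (0.0542 to 0.184). The number of subunits that rose with sgEZH2-2 was 1 when either control, the second sgEZH2-1 library, or the second or the third sgEZH2-2 library was left out, with JUNB (0.0673 to 0.226) and FOS (0.0567 to 0.156) lost in each case.

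Immediate early genes answer within minutes to serum, stress or handling, and CCN1 and CCN2 can respond in the same way. Of 13 such genes, 8 rose and 0 fell with sgEZH2-2, beside 6.18% and 2.50% of all genes (median log2 fold change 0.44), and 2 rose and 2 fell with sgEZH2-1, beside 11.3% and 9.51% (median 0.0222). This list shares genes with the AP-1 subunits above, FOS and FOSB among them, so the counts of the lists are not separate. EGR2 rose with sgEZH2-2 from 8.78 ± 0.145 to 31.6 ± 4.45 CPM (1.85, adjusted p = 0.000107), EGR1 from 663 ± 7.26 to 949 ± 41.1 CPM (0.52, adjusted p = 0.000527), EGR3 by 1.25 (adjusted p = 0.00621) and IER2 by 0.61 (adjusted p = 0.00705). Summed over the 13 genes, control libraries held 2570 to 2680 CPM, sgEZH2-1 libraries 2180 to 2480 and sgEZH2-2 libraries 3230 to 3450, the last being the group in which CCN2 rose. Their part in the CCN2 result was not tested. With sgEZH2-1, KLF4 rose by 0.88 (adjusted p = 0.000139) and DUSP1 by 0.36 (adjusted p = 0.0446), while FOSB and FOS fell as given above, FOS with the losses stated there. DUSP1 was lost with limma's voom (0.0508), with only the 2 groups in the fit (0.0719), and without either control, the second or the third sgEZH2-1 library, or the second or the third sgEZH2-2 library (0.0612 to 0.147). EGR3 (0.0671) and IER2 (0.0659) were lost without the second control. The count of 8 was 2 without the second control and 4 without the second or the third sgEZH2-2 library.

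**Figure D5:**
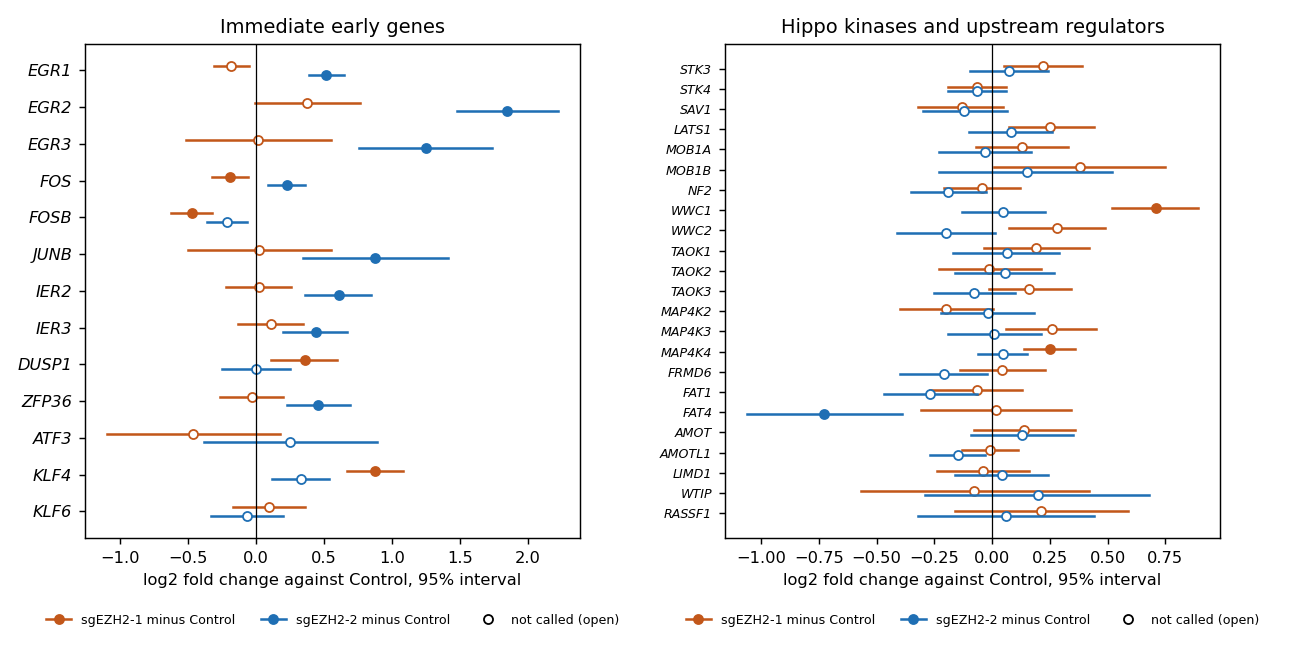
Log2 fold change against Control with 95% intervals for 13 immediate early genes (left) and 23 Hippo kinases and upstream regulators (right), for sgEZH2-1 and sgEZH2-2; filled points passed an adjusted p of 0.05. The 8 filled sgEZH2-2 points on the left lie above 0, with EGR2 farthest at 1.85, and 3 points are filled on the right, WWC1, MAP4K4 and FAT4.

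Targets of the actin-responsive factors MRTF and SRF, which overlap in part with YAP targets, were tested for 14 of 16 genes. With sgEZH2-1, TPM1 rose by 0.59 (adjusted p = 0.00114) and MYL9 by 1.26 from a level of 0.717 ± 0.0913 CPM (adjusted p = 0.0199; 0.085 with DESeq2 and 0.08 to 0.101 without either control), while TPM2 fell by 0.50 and CNN2 by 0.26 on the log2 scale (adjusted p = 0.0168 and 0.0463), so that 2 rose and 2 fell (11.3% and 9.51% of all genes). TPM2 was lost without the first control (0.113) and without the third sgEZH2-1 library (0.056). CNN2 was lost with RLE scaling (0.0513), with only the 2 groups in the fit (0.0743), and without any 1 library other than the third of sgEZH2-1 and the first of sgEZH2-2 (0.0599 to 0.26). With sgEZH2-2, 0 passed edgeR's test in either direction (8.68% of all genes), and 0 passed with DESeq2 or limma's voom. In edgeR 3 (ACTA2, VCL and TPM2) had an unadjusted p under 0.05. Without the first sgEZH2-2 library 1 of the 14 fell with sgEZH2-2.

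Markers of other cell types were read in the same libraries, since AXL and F3 are also made by fibroblasts and endothelial cells. Of 9 fibroblast markers only COL1A1 could be tested; the others had at most 6 counts in a library and COL1A2 had 0 in all. Their summed level ran from 6.13 to 7.24 CPM in control, from 5.02 to 8.96 in sgEZH2-1 and from 11.0 to 14.1 in sgEZH2-2 libraries, and COL1A1 rose with sgEZH2-2 from 6.59 ± 0.926 to 12.1 ± 1.56 CPM (adjusted p = 0.0437). This rise was lost without either control, the second sgEZH2-1 library, or the second or the third sgEZH2-2 library (0.0614 to 0.207). Of 9 endothelial markers KDR and TIE1 had 0 counts in all libraries, yet CDH5 was at 177 ± 4.77 CPM in the controls and fell with sgEZH2-1 to 77.3 ± 2.39 (-1.19, adjusted p = 1.83e-06) and with sgEZH2-2 to 149 ± 8.79 (-0.24, adjusted p = 0.0364). The fall of CDH5 with sgEZH2-2 was lost with only the 2 groups in the fit (0.0549) and without any 1 library other than the first of sgEZH2-1 (0.0607 to 0.16). The summed endothelial level, nearly all CDH5, was 177 to 184, 76.8 to 81.9 and 143 to 160 CPM, and the part of these markers in the AXL and F3 results was not tested. Among leukocyte markers CD3E was at 0, and the sums were 14.2 to 14.7, 14.2 to 18.5 and 11.8 to 13.7 CPM. Of 6 melanocyte markers, TYR, DCT and SOX10 were at 0, and the sums were 3.65 to 3.84, 2.52 to 3.17 and 2.42 to 4.09 CPM.

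Some keratinocyte markers moved with the guides as well. Of the 13, 3 rose and 2 fell with sgEZH2-1 (11.3% and 9.51% of all genes). TP63, the regulator of basal epidermal identity, fell there to 109 ± 8.19 CPM (-1.01, adjusted p = 1.27e-05). COL17A1, a hemidesmosome collagen, fell to 133 ± 5.47 (-0.75, adjusted p = 3.26e-05). The wound keratins KRT16, KRT17 and KRT6A rose by 1.09, 0.82 and 0.38 (adjusted p = 0.000359, 0.00581 and 0.0131). The KRT6A call was not recomputed in other settings. With sgEZH2-2, 4 fell and 0 rose (2.50% and 6.18% of all genes). Those that fell were KRT5 (-0.36), DSC3 (-0.36), PKP1 (-0.31) and DSG3 (-0.30), with adjusted p of 0.00727 to 0.0212. Without the first control KRT5 (0.0739) and PKP1 (0.0841) were lost, and without the second DSC3 (0.0714) and DSG3 (0.144), the last also without the second sgEZH2-1 library or the second or the third sgEZH2-2 library (up to 0.0821). Summed over the 13 markers, control libraries held 4170 to 4390 CPM, sgEZH2-1 libraries 3690 to 4190 and sgEZH2-2 libraries 3720 to 3810. Their part in the results for the 10 genes was not tested.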

How the data were processed

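RNA of 8 HSC-5 libraries was sequenced; per the labels' protocols the library kit was TruSeq Stranded mRNA. The authors deposited raw counts per gene, not normalized, in 1 table of 20294 genes. FastQC, STAR, DESeq and genome build hg38 are named per the submitters' processing notes; not given in the sources used here are versions, the counter, its annotation and whether it used strand, so genes with overlapping exons are marked. The columns name groups only. Libraries with totals of 12.6 to 15.5 M counts were scaled by TMM in edgeR 4.0.16 (R 4.3.3), genes were kept by filterByExpr (minimum count 10; 13124 kept, 3226 with 0 counts everywhere), and contrasts of 1 fit of 3 groups were tested by the quasi-likelihood F test with Benjamini-Hochberg adjustment over all genes kept (calls at 0.05). The pooled comparison was a fit of 2 levels. SEs and 95% intervals came from the F statistic. Alternatives were DESeq2 1.42.0, voom of limma 3.58.1, RLE scaling, other filters, fits of only the groups compared, and leaving out each library. RPKM used merged exon lengths of GENCODE 29 (GRCh38), and promoter windows came from RefSeq.

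The 10 genes and the lists beside them (other YAP/TAZ signature genes, Hippo regulators, TEAD factors, AP-1, immediate early genes, MRTF-SRF targets, relatives, partners, and markers of keratinocytes, fibroblasts, endothelial cells, leukocytes and melanocytes) were chosen with earlier results of these data known. From each list up to 4 called genes with the smallest p per guide were named. The called genes GAS6 and KRT6A were named beyond these. A few uncalled genes and KRT14 were named after their values were seen. The fit was checked on simulated counts with known changes.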

Additional observations from a re-analysis of the deposited data

Results flagged for a closer look

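For 6 of the 10 genes the effect of one guide differed from that of the other by the test of the difference itself, in edgeR's quasi-likelihood test adjusted over all genes. The log2 difference, sgEZH2-2 minus sgEZH2-1, was 0.49 for CCN2 (adjusted p = 0.00268; higher in 3 of 3 sgEZH2-2 libraries), -1.47 for ANKRD1 (0.00035), -0.57 for AJUBA (0.000166), -1.43 for AXL (5.8e-06), -1.59 for F3 (2.78e-06) and -0.39 for CRIM1 (0.00022). For the last 5 genes all 3 sgEZH2-2 libraries were below all 3 sgEZH2-1 libraries. Of all genes tested 21.9% differed between the guides, EZH2 among them (0.36, adjusted p = 0.00844).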

How the results depend on the processing

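Over 560 recomputed values for the 10 genes, 543 kept their direction and their side of the threshold, 8 passed where the reported value did not, 2 no longer passed (F3 with sgEZH2-2 without either control) and 7 changed sign, none of them a called value. The 7 were LATS2 with sgEZH2-1 (-0.0109 to 0.0523 with a library left out), YAP1 with sgEZH2-2 (-0.19 to 0.0679) and pooled (-0.0856 to 0.17), and the guide difference of AMOTL2 (-0.16 to 0.00418) and CCN1 (-0.12 to 0.0486). Of 1498 recomputed values for the other named genes, 1353 kept direction and side, 113 lost a call, 9 gained one and 23 changed sign. The recomputed calls against Control that were lost are named in the report. The calls of GAS6, KRT6A, ANXA3 and IL1RN were not recomputed. PTPN14 with sgEZH2-1 was at -6.8e-05 with no filter on low counts, and leaving out 1 library turned only uncalled values: with sgEZH2-1 FJX1 -0.00759 to 0.3, FOXF2 -0.0387 to 0.0754, GADD45A -0.0343 to 0.0874, TEAD4 -0.0746 to 0.14, ARHGEF17 -0.18 to 0.0354, PTPN14 -0.0116 to 0.0531; with sgEZH2-2 ASAP1 -0.0336 to 0.16, RBMS3 -0.29 to 0.57, FJX1 -0.0537 to 0.25, TEAD1 -0.17 to 0.0263, TEAD2 -0.0222 to 0.11, TEAD3 -0.012 to 0.16, TEAD4 -0.0997 to 0.12; between the guides TEAD4 -0.0636 to 0.0102, FJX1 -0.17 to 0.11.

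With only the 2 groups compared in the fit, 766 genes were lower with sgEZH2-1 (1248 in the fit of 3 groups) and 218 with sgEZH2-2 (328), from fewer libraries. Pooled, DESeq2 called 160 genes lower (78), and the mean of both guides in the fit of 3 groups gave 1010 higher, 602 lower (494 and 78) and 3 members higher (0), so the share of higher calls was 62.7% in place of 86.4%. Leaving out 1 library gave 844 to 1492 genes higher and 529 to 1145 lower with sgEZH2-1, 439 to 957 and 82 to 408 with sgEZH2-2, 829 to 1536 and 692 to 1469 between the guides, and 135 to 460 and 8 to 52 pooled. Members lower with sgEZH2-2 were 1 to 2. Where a control was left out the lone control was taken to vary like the other groups. The cause of these shifts was not tested.

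No paired analysis was possible because the columns carry no replicate number. Depth limits ANKRD1 most (37 to 169 counts), and the spread between controls rests on the 2 the authors kept.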
